A study of Mus musculus with 6 samples.

Results

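The genes described here are 9 genes of naive and stem-like T cells, namely Tcf7, Lef1, Il7r, Dapl1, Satb1, Bach2, Klf2, Bcl11b and Foxp1. They were taken by symbol from a table of 55450 genes, and 9 of 9 were found once each and passed the filter on low counts, as did 13171 genes in all. The study sequenced bulk RNA of lymphocytes sorted from the mammary glands of mice late in pregnancy (E18.5), with 3 libraries of CD8 beta+ T cells and 3 of double negative (DN) NK1.1+ lymphocytes. It asked whether unconventional lymphocytes in the mammary epithelium act on epithelial and basal cells. The labels name no strain, genotype, age or treatment for either group, do not say which pair of markers the DN cells lack, and call the DN cells T cells in the sample titles. Whether each library was made from its own animal is not stated, and p-values therefore cover the spread among these 6 libraries alone, which could be technical.

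Naive T cells circulate between blood and lymphoid organs in a quiescent state that is held by a small group of transcription factors and by survival signals from interleukin 7 (IL-7). TCF-1 and LEF-1 keep T cell genes open and are kept by memory cells that can renew themselves, whereas most of this set is turned down when T cells become effector cells or settle in a tissue. Natural killer (NK) cells and other innate lymphocytes use part of the same set during their development.

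The genes of the sort differed between the groups in the direction of the labels. Cd8b1, for the CD8 beta chain, was at 892 to 1007 CPM (counts normalised to library size, with TMM factors) in CD8 beta+ libraries and at 1.21 to 4.31 CPM in DN NK1.1+ libraries, and Klrb1c, for NK1.1, was at 30.8 to 41.8 and at 618 to 659 CPM. Depth was 7961360 to 14367299 counts per library, and 1 count was worth 0.0722 to 0.13 CPM. CD8 beta+ replicate 3 stood apart from the other libraries of its group for these 9 genes, so every library is shown. In bulk RNA, fewer cells of a type and less RNA per cell cannot be told apart.

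Of the 9 genes, 6 were lower in DN NK1.1+ than in CD8 beta+ libraries and 0 were higher by edgeR's quasi-likelihood test at an adjusted p under 0.05. Over all tested genes, 5.99% were called lower and 7.84% higher. The 6 genes were Dapl1, Bcl11b, Lef1, Tcf7, Klf2 and Foxp1, with decreases from 30.5-fold to 1.33-fold. Il7r, Satb1 and Bach2 did not pass. In 7 of the 9 genes, Il7r included, the groups did not overlap, beside 30.6% of all tested genes. DESeq2 called 7 of the 9 lower, where it called 6.91% of all genes, and limma-voom called 6, where it called 6.33%. The median log2 fold change of the 9 genes was −1.29, beside −0.0033 over all tested genes. The 9 genes together held 2191, 2249 and 1278 CPM in CD8 beta+ replicates 1 to 3 and 1045, 1056 and 911 CPM in DN NK1.1+ replicates 1 to 3. Without CD8 beta+ replicate 3, 8 of the 9 genes were called lower, where 6.4% of all tested genes were. That library was the lowest of its group in all 9 genes, so the count of 8 is not separate support. Leaving out CD8 beta+ replicate 1, CD8 beta+ replicate 2 or DN NK1.1+ replicate 3 gave 5 each, beside 3.6%, 3.87% and 5.75% of all tested genes. No gene of the set was called higher by edgeR, by DESeq2 (8.51% of all genes) or by limma-voom (7.66%), nor at an unadjusted p under 0.05 by edgeR.

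**Figure D1:**
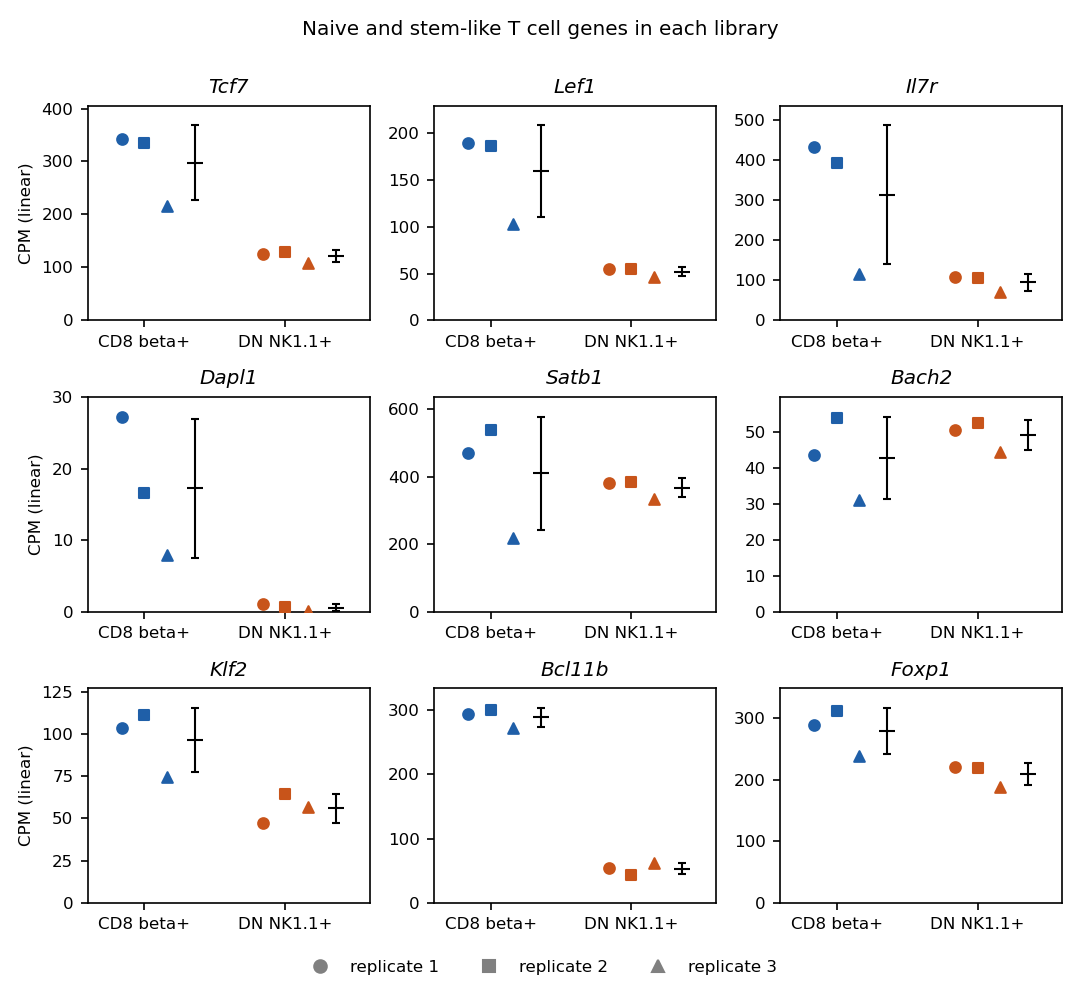
CPM (linear axis from 0) of the 9 genes in each library, with the mean ± SD of each group (n = 3) as a black bar. CD8 beta+ replicate 3 (blue triangle) is the lowest CD8 beta+ library in all 9 panels, and in Satb1 and Bach2 it lies below every DN NK1.1+ library.

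The 4 genes with the largest fitted decreases were Dapl1, Bcl11b, Il7r and Lef1. Their promoter windows, from 250 bases before to 50 after a RefSeq start site on build GRCm38.p6, are shown so that their sequence can be set beside their levels. Il7r is among them by the size of its fitted change, although it was not called. Where RefSeq lists several starts, the window nearest to the 5′ end of the gene in GENCODE M21 was taken. Capitals mark matches, on either strand, to 6 motifs: CTTTGA for TCF/LEF factors, TGTTTAC for FOXO, TGANTCA for BACH and AP-1 factors, TGTGGT for RUNX, CCGGAAG for ETS and CCACCC for KLF.
Dapl1, plus strand, chr2:59484403-59484702: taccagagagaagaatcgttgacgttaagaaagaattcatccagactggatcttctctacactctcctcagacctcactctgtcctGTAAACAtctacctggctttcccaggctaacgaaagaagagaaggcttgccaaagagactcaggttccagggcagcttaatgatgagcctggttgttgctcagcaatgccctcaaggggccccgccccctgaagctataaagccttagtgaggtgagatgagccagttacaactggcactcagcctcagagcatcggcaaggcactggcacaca
Bcl11b, minus strand, chr12:108003365-108003664: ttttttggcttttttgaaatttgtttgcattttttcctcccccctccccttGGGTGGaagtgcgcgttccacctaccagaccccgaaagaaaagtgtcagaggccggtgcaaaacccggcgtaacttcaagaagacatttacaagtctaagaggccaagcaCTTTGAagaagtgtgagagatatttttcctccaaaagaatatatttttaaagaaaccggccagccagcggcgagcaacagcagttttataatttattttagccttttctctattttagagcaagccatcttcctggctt
Il7r, minus strand, chr15:9529827-9530126: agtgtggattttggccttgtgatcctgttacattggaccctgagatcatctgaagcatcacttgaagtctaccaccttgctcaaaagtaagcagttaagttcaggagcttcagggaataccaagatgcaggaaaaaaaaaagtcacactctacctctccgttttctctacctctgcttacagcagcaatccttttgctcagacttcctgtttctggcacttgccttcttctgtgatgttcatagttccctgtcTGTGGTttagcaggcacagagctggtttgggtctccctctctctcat
Lef1, plus strand, chr3:131110073-131110372: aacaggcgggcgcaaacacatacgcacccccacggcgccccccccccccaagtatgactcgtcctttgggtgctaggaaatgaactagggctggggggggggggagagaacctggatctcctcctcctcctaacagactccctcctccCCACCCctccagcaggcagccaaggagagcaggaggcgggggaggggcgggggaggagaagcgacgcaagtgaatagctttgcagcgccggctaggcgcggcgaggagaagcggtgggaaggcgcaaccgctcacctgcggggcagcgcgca

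The Dapl1 window held a FOXO match on the minus strand from −164 to −158 relative to the start site. The Bcl11b window held a TCF/LEF match from −89 to −84 and a KLF match on the minus strand from −199 to −194. The Il7r window held a RUNX match from 3 to 8, and the Lef1 window a KLF match from −102 to −97. Among 32851 such windows of all genes, 3.65% held the FOXO letters, 16% the TCF/LEF letters, 16.8% the RUNX letters and 31.5% the KLF letters. The BACH and AP-1 letters, held by 7.81% of all windows, and the ETS letters, held by 8.86%, were in none of these 4 windows. The Bcl11b and Lef1 windows thus shared the KLF letters, and no motif was in all 4 windows. The windows also differ in base composition, with 51.0% G and C in Dapl1, 43.0% in Bcl11b, 45.7% in Il7r and 67.3% in Lef1, beside a median of 52.7% over all windows. A match describes the letters only, and no binding was measured.

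Tcf7 and Lef1 encode TCF-1 and LEF-1, paired DNA-binding factors of the T cell lineage. Tcf7 (chromosome 11, 52252371 to 52283014, minus strand, mm10) was at 342, 335 and 216 CPM in CD8 beta+ replicates 1 to 3 and at 126, 130.0 and 108 CPM in DN NK1.1+ replicates 1 to 3. Every CD8 beta+ library was above every DN NK1.1+ library, and replicate 3 was the lowest of its group. The decrease was 2.45-fold (log2 fold change −1.29, SE 0.167, adjusted p = 4.97e-04). Lef1 (chromosome 3, 131110471 to 131224356, plus strand) was at 189, 186 and 103 CPM in CD8 beta+ and at 55.1, 54.4 and 46.1 CPM in DN NK1.1+ libraries. The order of the libraries was much like that of Tcf7, and the groups did not overlap. Lef1 fell 3.07-fold (log2 fold change −1.62, SE 0.232, adjusted p = 0.00288). Both calls held in each of 14 alternatives. The ratio of Lef1 to Tcf7 in CD8 beta+ replicates 1 to 3 was 0.554, 0.554 and 0.479, and in DN NK1.1+ replicates 1 to 3 it was 0.439, 0.418 and 0.425, with each DN NK1.1+ library below each CD8 beta+ library. The groups also did not overlap for 75.3% of all tested genes set against Tcf7, so this is not particular to Lef1.

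Bcl11b encodes a zinc finger factor that commits progenitors to the T cell lineage. Its locus is on chromosome 12 from 107910403 to 108003602. It was at 294, 301 and 272 CPM in CD8 beta+ and at 54.7, 44.0 and 61.4 CPM in DN NK1.1+ libraries. The CD8 beta+ libraries lay close together here, replicate 3 included, and far above the DN NK1.1+ libraries. Bcl11b fell 5.41-fold (log2 fold change −2.44, SE 0.121, adjusted p = 2.22e-09), with log2 fold changes from −2.55 to −2.32 over the alternatives.

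Dapl1, a gene known mainly as a marker of naive T cells, had the largest decrease of the set. The locus is on chromosome 2 from 59484653 to 59505020. It was at 27.3, 16.5 and 7.93 CPM in CD8 beta+ libraries, or 210, 229 and 77 counts. DN NK1.1+ libraries had 1.03, 0.587 and 0.0759 CPM, or 12, 7 and 1 counts. The groups did not overlap, and the libraries within each group differed widely. Dapl1 fell 30.5-fold (log2 fold change −4.93, 95% interval −6.58 to −3.28, adjusted p = 0.00215). The fold change ranged from −5.69 without DN NK1.1+ replicate 1 to −4.39.

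Klf2 encodes a factor of T cell quiescence that drives genes of exit from tissue. It is on chromosome 8 from 72319033 to 72321656. It was at 103, 111 and 74.8 CPM in CD8 beta+ and at 47.2, 64.4 and 56.6 CPM in DN NK1.1+ libraries. CD8 beta+ replicate 3 came nearest to the DN NK1.1+ libraries, without reaching them. Klf2 fell 1.72-fold (log2 fold change −0.78, SE 0.156, adjusted p = 0.00364).

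Foxp1 encodes a forkhead factor that restrains the activation of naive T cells. It maps to chromosome 6 from 98925338 to 99522721. It was at 288, 312 and 238 CPM in CD8 beta+ and at 221, 219 and 189 CPM in DN NK1.1+ libraries. This was the smallest decrease among the 6 called genes, at 1.33-fold (log2 fold change −0.42, SE 0.112, adjusted p = 0.0203). Foxp1 lost its call without CD8 beta+ replicate 1 (adjusted p = 0.0953), CD8 beta+ replicate 2 (0.129) or DN NK1.1+ replicate 3 (0.0556), over a range of 0.00147 to 0.129 in all alternatives.

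Il7r encodes the alpha chain of the receptor for IL-7. It lies on chromosome 15 from 9505788 to 9530176. It was at 433, 394 and 116 CPM in CD8 beta+ and at 108, 106 and 70.6 CPM in DN NK1.1+ libraries. CD8 beta+ replicates 1 and 2 were far above all DN NK1.1+ libraries, whereas replicate 3 was just above the highest of them. With all libraries the log2 fold change was −1.73 (95% interval −3.34 to −0.12, adjusted p = 0.174), which did not pass. Without CD8 beta+ replicate 3 it was −2.14 (adjusted p = 4.06e-06), and DESeq2 on all 6 libraries called it as well (adjusted p = 0.0204).

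Satb1 encodes a chromatin organiser of developing and naive T cells. It lies on chromosome 17 from 51736187 to 51833290. It was at 470.3, 540 and 219 CPM in CD8 beta+ and at 382, 385 and 335 CPM in DN NK1.1+ libraries. CD8 beta+ replicates 1 and 2 were above the DN NK1.1+ libraries and replicate 3 was below them. The log2 fold change was −0.16 (95% interval −1.12 to 0.81, adjusted p = 0.857). Without CD8 beta+ replicate 3 it was −0.47 and passed (adjusted p = 0.00582), and without CD8 beta+ replicate 2 it turned to 0.086 (adjusted p = 0.935). In 14 alternatives Satb1 was called in 1.

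Bach2 encodes a repressor that holds back effector differentiation of T cells and is also strong in B cells. It lies on chromosome 4 from 32238804 to 32586108. It was at 43.5, 54.0 and 31.0 CPM in CD8 beta+ and at 50.5, 52.5 and 44.4 CPM in DN NK1.1+ libraries. The groups overlapped, and CD8 beta+ replicate 3 was again the lowest of the 6. The log2 fold change was 0.19 (95% interval −0.19 to 0.57, adjusted p = 0.571), or −0.0042 without CD8 beta+ replicate 3 (adjusted p = 0.993). In 14 alternatives Bach2 was called in 0.

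**Figure D2:**
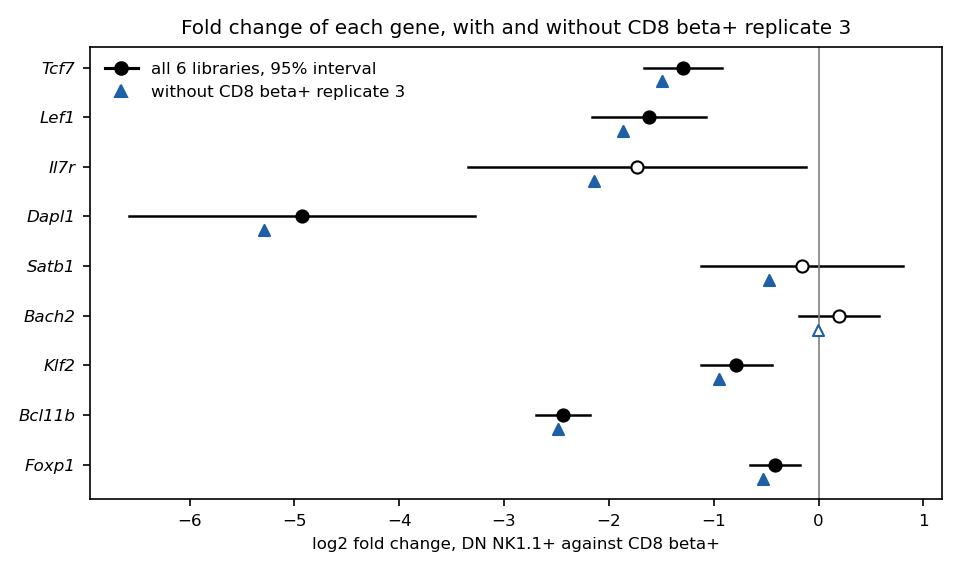
Log2 fold change of each gene, DN NK1.1+ against CD8 beta+. Black circles with bars are the fit on 6 libraries with its 95% interval, blue triangles are the fit without CD8 beta+ replicate 3, and filled symbols passed an adjusted p under 0.05. Il7r and Satb1 are open with all libraries and filled without that library, and Bach2 is open in both.

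Within single libraries, Satb1, Bach2, Foxp1 and Klf2 were higher relative to Tcf7 in each DN NK1.1+ library than in each CD8 beta+ library. The ratio to Tcf7 does not depend on the scaling of the libraries. Tcf7 was chosen as reference after the values were seen. Satb1 was at 1.38, 1.61 and 1.02 times Tcf7 in CD8 beta+ and at 3.05, 2.96 and 3.09 times in DN NK1.1+ libraries. Bach2 was at 0.127, 0.161 and 0.144 times Tcf7 in CD8 beta+ and at 0.402, 0.403 and 0.41 times in DN NK1.1+ libraries. Foxp1 was at 0.844 to 1.11 and at 1.68 to 1.76 times Tcf7. By these ratios CD8 beta+ replicate 3 was the library of its group farthest from the DN NK1.1+ libraries for Satb1, in the middle for Bach2 and nearest for Foxp1. Bcl11b went the other way, from 0.86 to 1.26 times Tcf7 in CD8 beta+ to 0.338 to 0.566 times in DN NK1.1+ libraries. The groups did not overlap in 7 of 8 ratios, Il7r being the exception, but this also held for 75.3% of all tested genes set against Tcf7. The exact permutation test gave p = 0.1 (two-sided) for these 7, the smallest p that 3 against 3 libraries allow, and 0.114 after adjustment over the 8 ratios.

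Levels of different genes were compared as CPM per kilobase of annotated exon. In CD8 beta+ libraries the order was Tcf7 (113 ± 27.0, SD, n = 3), Il7r (67.4 ± 37.1), Klf2 (52.2 ± 10.4), Bcl11b (35.6 ± 1.83), Dapl1 (25.4 ± 14.3), Satb1 (21.5 ± 8.86), Foxp1 (20.3 ± 2.74), Lef1 (18.1 ± 5.54) and Bach2 (4.31 ± 1.16). The ranges of neighbours in this order overlapped, that of Tcf7 with that of Il7r included, except between Klf2 and Bcl11b and between Lef1 and Bach2. Within each CD8 beta+ library Tcf7 was above Il7r. In DN NK1.1+ libraries Tcf7 was again the highest at 46.2 ± 4.34 CPM per kilobase, followed by Klf2 (30.4 ± 4.64), Il7r (20.3 ± 4.47), Satb1 (19.3 ± 1.48) and Foxp1 (15.2 ± 1.32). Il7r overlapped Satb1 there. Bcl11b (6.58 ± 1.08) overlapped Lef1 (5.90 ± 0.567), which overlapped Bach2 (4.94 ± 0.42), and Dapl1 was the lowest at 0.833 ± 0.706. Tcf7 had the highest mean of the set in both groups, while Bcl11b and Dapl1 moved down the order. Exon lengths are the union over all annotated transcripts and may exceed the form the cells use.

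CD8 beta+ replicate 3 was the lowest of its group in 9 of 9 genes, which was so for 34.5% of all tested genes. It was at least 1.5-fold below both other CD8 beta+ libraries in 5 of the 9, namely Tcf7, Lef1, Il7r, Dapl1 and Satb1, beside 9.24% of all tested genes. It was below every other library in Satb1 and Bach2, beside 15.4% of all tested genes. Against the mean of replicates 1 and 2, the difference in log2 CPM was −1.83 for Il7r, −1.40 for Dapl1, −1.20 for Satb1, −0.86 for Lef1, −0.65 for Tcf7, −0.64 for Bach2, −0.52 for Klf2, −0.33 for Foxp1 and −0.13 for Bcl11b. The median over the set was −0.65, beside 0.0206 over all tested genes, of which 47.5% were below 0. Over all tested genes the root mean square difference in log2 CPM was 0.89 and 0.843 between replicate 3 and replicates 1 and 2, and 0.696 between those 2. Over the 9 genes it was 1.04 and 0.951, against 0.278 between replicates 1 and 2. In the DN NK1.1+ group, replicate 3 was at 0.804 and 0.616 from replicates 1 and 2 over the 9 genes. The value between those 2 was 0.288. Over all tested genes these DN NK1.1+ values were 0.748, 0.834 and 0.779. The distances of replicate 3 over the 9 genes lean on Dapl1, with 12, 7 and 1 counts in DN NK1.1+ replicates 1 to 3. Dapl1 had the largest difference between replicates 1 and 3, at 2.26 in log2 CPM. Distances without Dapl1 were not computed, so these values do not show that the set as a whole stood apart there. DN NK1.1+ replicate 3 was the lowest of its group in all of the 9 genes but Klf2 and Bcl11b. The labels give no batch or date, so what lies behind the low values of replicate 3 in either group was not tested.

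**Figure D3:**
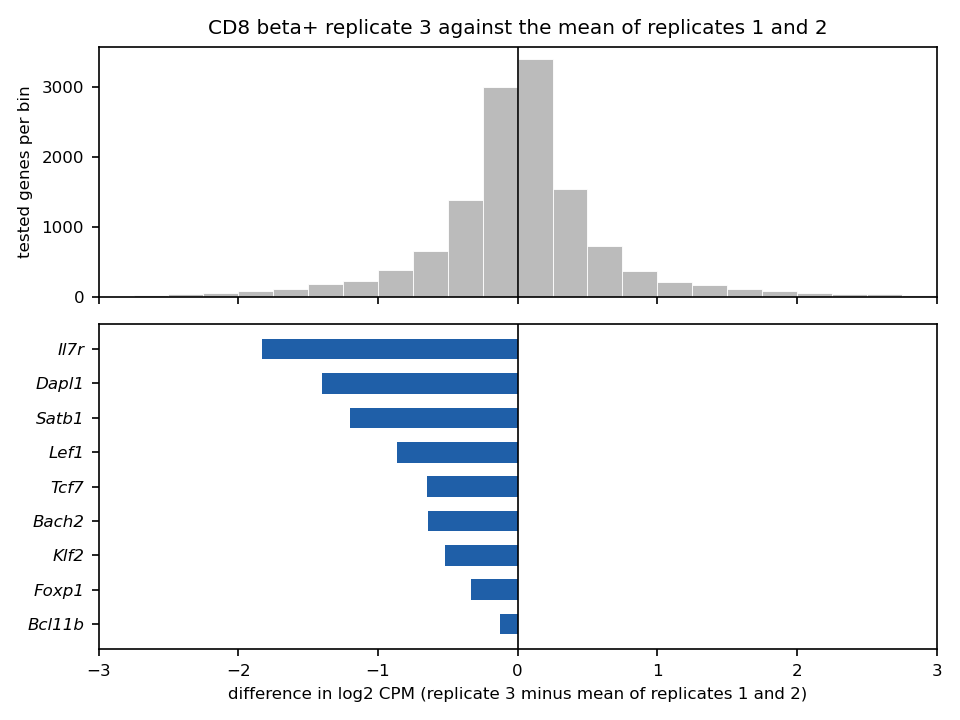
Difference in log2 CPM between CD8 beta+ replicate 3 and the mean of replicates 1 and 2, for all tested genes as a histogram (upper panel) and for the 9 genes as bars (lower panel), drawn from −3 to 3. All 9 bars lie below 0, from −0.13 for Bcl11b to −1.83 for Il7r, whereas the histogram is centred near 0.

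Markers of other cells were read in the same libraries. Over all tested genes, 5.99% were called lower and 7.84% higher in DN NK1.1+ libraries. B cells, which also express Bach2, Satb1, Klf2 and Foxp1, were followed with 9 markers. Of these, 9 of 9 were lower in CD8 beta+ replicate 3 than in the mean of replicates 1 and 2, beside 47.5% of all tested genes. Their summed level was 300.2, 302 and 195 CPM in CD8 beta+ and 349, 347 and 290.4 CPM in DN NK1.1+ libraries, most of it from Ighm. Of these markers Ighm rose and Cd79b fell in DN NK1.1+ libraries, with a median log2 fold change of −1.32. Cd79b lost its call when CD8 beta+ replicate 1 or DN NK1.1+ replicate 2 was left out (adjusted p = 0.134 and 0.0763), and Ms4a1 was called lower with no filter (0.0213) and with a replicate block (0.00269). The B cell gene Ms4a1 was at 8.32, 15.1 and 2.78 CPM and at 3.53, 3.77 and 0.228 CPM. The 7 markers of fibroblasts and endothelium summed to 64.7, 48.3 and 160 CPM in CD8 beta+ and to 101, 49.2 and 174 CPM in DN NK1.1+ libraries. Of 6 tested, 1, Pecam1, rose (adjusted p = 0.00567) and 0 fell. Markers of NK cells and type 1 innate lymphoid cells rose in 10 of 10, with sums of 157 to 226 and of 2717 to 2911 CPM. These include Klrb1c, on which cells were sorted. Of 8 markers of type 2 innate lymphoid cells, which depend on IL-7, 4 were tested, and Gata3 and Arg1 rose and 0 fell, with a median log2 fold change of 2.48. Arg1 was at 0, 0 and 0.103 CPM in CD8 beta+ and at 0.948, 1.09 and 1.14 CPM in DN NK1.1+ libraries (adjusted p = 0.0364). Its call was lost without CD8 beta+ replicate 1 or 2 or any DN NK1.1+ library (0.108 to 0.186), with no filter (0.0883) and with a replicate block (0.0631). Il5 and Il13 had 0 counts in all libraries. Of 5 markers of CD4 and regulatory T cells, Foxp3 was at 0 to 0.531 CPM over all libraries and Cd4 was at 0.26, 1.16 and 5.05 CPM in CD8 beta+ and at 2.24, 0.922 and 0.91 CPM in DN NK1.1+ libraries (adjusted p = 0.714). Ctla4 fell, at 16.4, 25.6 and 33.7 CPM in CD8 beta+ and at 6.12, 7.96 and 7.74 CPM in DN NK1.1+ libraries (adjusted p = 2.18e-04). Zbtb7b rose, at 5.46 to 7.15 and at 7.93 to 21.2 CPM (adjusted p = 0.0192), a call lost without CD8 beta+ replicate 1 or 2 or DN NK1.1+ replicate 2 or 3 (0.050 to 0.13) and with limma-voom (0.0693). Markers of mammary epithelium summed to 377 to 602 CPM in CD8 beta+ and to 208, 556 and 1175 CPM in DN NK1.1+ libraries, most of it from the milk protein gene Csn2. Of 7 tested, 1, Epcam, rose, from 6.05 ± 1.79 to 32.0 ± 1.04 CPM (adjusted p = 4.06e-06), and 0 fell. Epcam was named after its values were seen and was not followed over the alternatives. Markers of myeloid cells summed to 176 to 264 and to 369 to 440.4 CPM, and those of gamma-delta T cells to 34.4 to 40.1 and to 209.9 to 244 CPM. Of 7 tested myeloid markers 2 rose and 0 fell, and of 4 tested gamma-delta markers 4 rose. The part of these cells in the results was not tested.

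Other genes of naive and memory T cells were lower as well. Of 20 such companions, 12 fell and 2 rose, beside 5.99% and 7.84% of all tested genes. The median log2 fold change of the list was −1.19. Ccr7, a receptor of lymph node homing, had the largest fitted change (log2 fold change −4.05, adjusted p = 0.0153), but lost its call when any DN NK1.1+ library was left out (0.0900 to 0.0915) and with limma-voom (0.163). Il6ra, a chain of the IL-6 receptor, fell from 43.0 ± 19.2 to 2.73 ± 0.85 CPM (SD, n = 3). S1pr1, which guides exit from tissue, and Slamf6, a surface receptor used as a marker of stem-like T cells, had log2 fold changes of −1.85 and −1.78. Ets1, a factor of lymphocyte identity and the most abundant of the list, fell from 1429 ± 38.2 to 995 ± 26.6 CPM. Txk, for a Tec family kinase, and Ramp1, for a receptor subunit, were the 2 that rose, with log2 fold changes of 1.12 and 2.22. Ramp1 lost its call without DN NK1.1+ replicate 1 (adjusted p = 0.0988).

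Partners of TCF-1 and LEF-1 were called in both directions. Of 17 tested genes of cofactors and Wnt signalling, 3 rose and 2 fell, beside 7.84% and 5.99% of all tested genes. The median log2 fold change of the list was −0.059. Ctnnb1, for beta-catenin, rose from 176 ± 13.8 to 228 ± 12.8 CPM (log2 fold change 0.38, adjusted p = 0.0146), and Lrp5, for a Wnt co-receptor, rose from 5.10 ± 1.44 to 13.2 ± 2.87 CPM. Axin2, a target and inhibitor of the pathway, fell from 40.1 ± 4.29 to 24.9 ± 3.18 CPM (log2 fold change −0.68, adjusted p = 0.00985), as did Bcl9l, for a beta-catenin cofactor, from 94.3 ± 6.80 to 65.5 ± 2.31 CPM. Without CD8 beta+ replicate 1, the calls of Ctnnb1 (adjusted p = 0.0637) and Axin2 (0.0631) ended, and that of Ctnnb1 also ended without CD8 beta+ replicate 2 (0.106). Gsk3b, for a kinase of the pathway and the most abundant of the list, was at 238 ± 12.8 and 229 ± 21.2 CPM (adjusted p = 0.786).

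Genes of IL-7 receptor signalling other than Il7r showed no common direction, with a median log2 fold change of −0.048. Of 11 tested, 2 rose and 0 fell by edgeR's adjusted p, beside 7.84% and 5.99% of all tested genes. At an unadjusted p under 0.05, 3 were higher and 1, Stat5a, was lower. Jak1, for the kinase bound to the alpha chain, was the most abundant at 1746 ± 49.2 and 1531 ± 101 CPM (adjusted p = 0.251). Il2rg, for the shared receptor chain, was at 740.1 ± 18.2 and 716 ± 42.8 CPM (adjusted p = 0.816), and Bcl2, for a survival protein, was at 392 ± 18.2 and 445 ± 52.0 CPM (adjusted p = 0.309). Pim1, for a kinase induced by STAT5, rose from 116 ± 8.34 to 171 ± 11.1 CPM. Cish, for a feedback inhibitor induced by STAT5, rose from 74.8 ± 3.68 to 97.1 ± 10.5 CPM (adjusted p = 0.0362), a call that ended with upper quartile scaling (0.0504) or without any of 4 libraries: CD8 beta+ replicate 1 or 2, or DN NK1.1+ replicate 1 or 3 (0.1 to 0.154).

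Of 13 FOXO and KLF factors and trafficking genes, 4 fell and 1 rose, beside 5.99% and 7.84% of all tested genes. The median log2 fold change of the list was −0.11. Klf3, for a repressor related to KLF2, fell from 377 ± 12.9 to 165 ± 11.5 CPM, while Klf4, for a related factor of quiescence, rose from 12.9 ± 0.656 to 38.2 ± 2.71 CPM. Klf6 was the most abundant at 457 ± 31.6 and 424 ± 37.1 CPM (adjusted p = 0.56). The KLF family was thus lower in Klf2 and Klf3 and higher in Klf4, under each scaling tried. Foxo1, which activates Il7r and Klf2 in naive T cells, fell from 303 ± 37.7 to 176 ± 7.44 CPM (log2 fold change −0.78, adjusted p = 8.34e-05). Foxo1 is named outside the rule for named genes, after its values were seen.

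Of 10 partners and targets of BACH2, 2 rose and 1 fell, beside 7.84% and 5.99% of all tested genes. The median log2 fold change of the list was 0.15. Maff, for a small MAF protein, rose from 8.92 ± 0.585 to 30.7 ± 1.01 CPM. Prdm1, for the effector factor Blimp-1 that BACH2 represses, fell from 76.6 ± 19.2 to 52.8 ± 0.998 CPM (adjusted p = 0.0282), with 62.6, 68.6 and 98.5 CPM in CD8 beta+ replicates 1 to 3. Prdm1 lost its call without CD8 beta+ replicate 3 (adjusted p = 0.118), when any DN NK1.1+ library was left out (0.0764 to 0.106) and with scaling by library size only (0.0665). Jund, of the AP-1 family, rose from 62.6 ± 7.09 to 85.9 ± 10.4 CPM (adjusted p = 0.0243). That call ended without any 1 of the CD8 beta+ libraries, DN NK1.1+ replicate 2 or DN NK1.1+ replicate 3 (0.0547 to 0.0966). Junb, of the same family, was the most abundant at 272 ± 44.9 and 371 ± 88.7 CPM (adjusted p = 0.163). It was called higher with DESeq2 (0.0245), with no filter (6.45e-04), with a replicate block (0.00369) and without DN NK1.1+ replicate 1 (0.023).

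Of 17 partners of BCL11B and factors of T cell commitment, 3 rose and 1 fell, beside 7.84% and 5.99% of all tested genes. The median log2 fold change of the list was 0.037. Runx1 rose from 68.5 ± 9.83 to 106 ± 9.66 CPM. Gata3 rose from 77.6 ± 3.92 to 107 ± 17.1 CPM (adjusted p = 0.019). Its call ended without any 1 of the CD8 beta+ libraries (0.0517 to 0.1003) or without DN NK1.1+ replicate 2 (0.142). Gatad2a, for a subunit of the NuRD complex, rose from 219.6 ± 24.0 to 296 ± 8.21 CPM, a call lost without CD8 beta+ replicate 2 (adjusted p = 0.0588), and Ets1 was the gene that fell. Of 9 tested genes among the closest family members of the set, Klf3 fell and Klf4 rose, and Tcf7l1 and Tcf7l2, the other factors of the TCF family, were at most at 1.95 and 10.0 CPM in any library.

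Of 20 effector and residency factors, 8 rose and 4 fell, beside 7.84% and 5.99% of all tested genes. The median log2 fold change of the list was 0.21. Ikzf2 and Nfil3 had log2 fold changes of 2.35 and 1.66, and Irf4 and Rora of −2.59 and −1.72. Nr4a3, induced by receptor signalling, was the most abundant and rose from 717 ± 117 to 1226 ± 68.8 CPM. The 20 genes summed to 2776, 2819 and 3471 CPM in CD8 beta+ replicates 1 to 3 and to 4213 to 4638 CPM in DN NK1.1+ libraries. CD8 beta+ replicate 3 was below the mean of replicates 1 and 2 in 4 of the 20, beside 47.5% of all tested genes. The median difference was 0.35 in log2 CPM, beside 0.0206 over all tested genes. On this list, as on the 9 genes, CD8 beta+ replicate 3 lay between the other CD8 beta+ libraries and the DN NK1.1+ libraries in its summed level. Single genes went both ways. Nr4a3 of replicate 3 lay between, whereas Irf4, Rora and Prdm1 were highest in replicate 3, farther from the DN NK1.1+ libraries. Among the 9 genes, Satb1 and Bach2 of replicate 3 were below every DN NK1.1+ library.

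**Figure D4:**
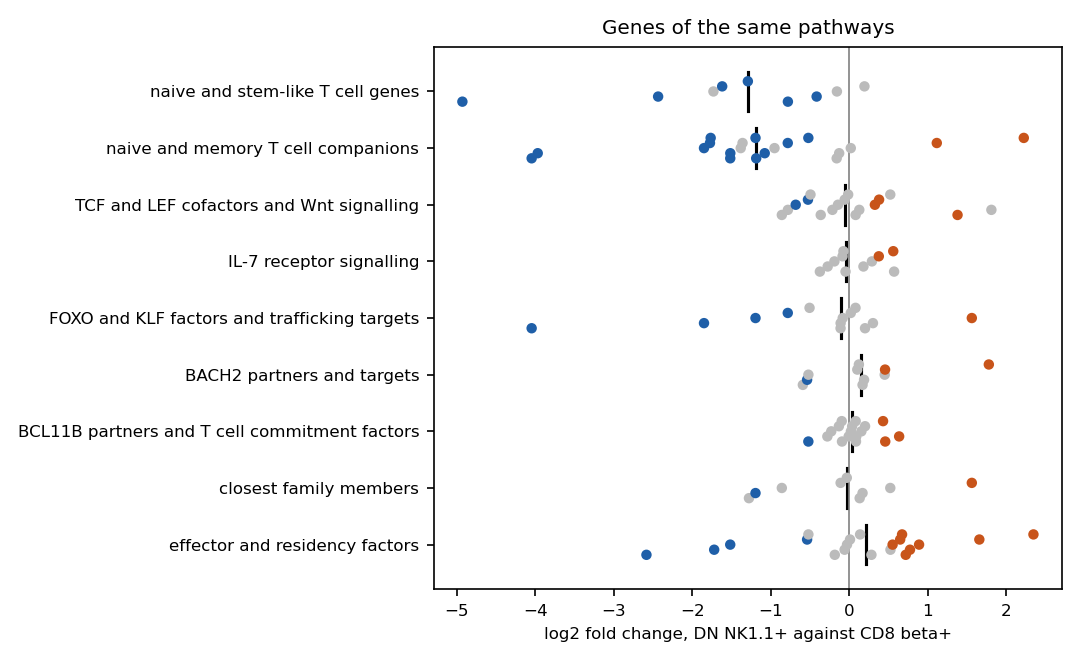
Log2 fold change, DN NK1.1+ against CD8 beta+, of each tested gene in the set and in 8 related lists. Points are genes, blue where called lower, orange where called higher and grey where not called, and the black line is the median. The set and the naive and memory companions lie mostly below 0, whereas the medians of the other 7 lists lie between −0.11 and 0.21.

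The genes with the most similar profile were sought by the root mean square difference of centred log2 CPM over the 6 libraries, among 7499 genes with a mean of at least 10 CPM. Tcf7 was nearest to Dgka (0.095) and Casc4 (0.101), and its nearest neighbour in the set was Lef1 (0.168). Lef1 was nearest to Tgtp1 (0.2) and Pik3ip1 (0.202). Il7r was nearest to Nsg2 (0.26) and St6gal1 (0.271), which were called lower (adjusted p = 0.0409 and 0.0224). Nsg2 was at 56.9, 67.5 and 23.6 CPM in CD8 beta+ and at 15.9, 20.3 and 15.5 CPM in DN NK1.1+ libraries, with the same low replicate 3. Nsg2 lost its call without CD8 beta+ replicate 1 (adjusted p = 0.12), when any DN NK1.1+ library was left out (0.124 to 0.188) and with limma-voom (0.173). St6gal1 lost its call under the same alternatives, at 0.0505, at 0.111 to 0.13 and at 0.178. Dapl1 had no close neighbour, with Fam169b at 0.457 and Themis at 0.698. Bcl11b was nearest to Zdhhc2 (0.196) and to Cd8a (0.207), a sort gene candidate that fell from 911 ± 85.8 to 162 ± 11.6 CPM. Satb1 was nearest to Bhlhb9 (0.107) and Rny3 (0.128), Bach2 to Mcts1 (0.0668) and Armcx5 (0.0784), Klf2 to Dcp1b (0.0855) and Pou6f1 (0.0939), and Foxp1 to Ddx18 (0.0374) and Srpk1 (0.0459). Satb1 and Bach2 were each other's nearest neighbour in the set (0.237), and so were Klf2 and Foxp1 (0.247).

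Several genes of the set overlap others in the annotation, and the use of strand in counting is not given in the sources used here. Exons of Lef1 overlap Gm43352 on the opposite strand, which had 2 to 20 counts per library beside 608 or more for Lef1. Exons of Bach2 overlap the antisense gene Bach2os, with 0 to 7 counts beside 301 or more for Bach2. Exons of Satb1 overlap Gm36931 on the same strand (234 to 554 counts) and Gm6934 on the opposite strand (8 to 47 counts), beside 2131 or more for Satb1. Exons of Foxp1 overlap the gene Gm20696 on the same strand, with 48 to 147 counts beside 2218 or more for Foxp1. Reads shared between such genes may have been split, so these 4 genes carry that uncertainty. Tcf7, Il7r, Dapl1, Klf2 and Bcl11b share no annotated exon with another gene.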

How the data were processed

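Bulk RNA was sequenced in 6 libraries, 3 per group. The expected counts per gene deposited by the authors come from a tool that the labels do not name. That unit was inferred: values have up to 2 decimals and library totals are unequal. The submitters' processing notes list mm10 and Cell Ranger 7.1.0, which is made for single cells. For the bulk libraries the aligner, the counter, the annotation and the use of strand were not given in the sources used here. Headings of the ID and symbol columns are interchanged, and all 55450 IDs and symbols matched GENCODE M21 (mm10), from which coordinates and exon lengths were taken. Promoter windows are from RefSeq (GRCm38.p6).

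Expected counts were rounded and tested with edgeR 4.0.16 in R 4.3.3 (robust quasi-likelihood fit, group alone, TMM factors of 0.9653 to 1.031), after filtering low genes (filterByExpr, at least 10 counts in enough libraries and 15 in total). P-values are two-sided, with Benjamini-Hochberg adjustment over 13171 genes and called under 0.05. Each standard error (SE) comes from the F statistic. Log2 CPM used for distances has a prior count of 2. On simulated counts for this comparison with 13171 genes, the fit recovered 23.5% of 81 genes with a 1.5-fold change, 64.3% of 56 with 2-fold and 79.4% of 63 with 4-fold. Of 111 calls, 5.41% were false. The simulated spread followed the trend of dispersion with abundance, not the spread of each gene. These shares therefore do not carry over to genes with a wide spread, such as Il7r and Satb1. The simulation also changed far fewer genes than the 1822 called in the data. The adjusted p depends on that number, so the shares are not those of the real comparison.

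Alternatives were other scalings, filters, DESeq2 1.42.0, limma-voom (limma 3.58.1), a replicate block and leaving out each library. Genes of the related lists were named by size of change and abundance: up to 4 called genes of at least 5 CPM by size of change, plus the most abundant gene. Genes named outside that rule were picked with their values known. The genes of the set, the lists and the tests were chosen with earlier results of these data known. Chi-square per degree of freedom was 9.08 to 23.5 between libraries of a group, so none was a copy. Counts set the precision of low values.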

Additional observations from a re-analysis of the deposited data

How the results depend on the processing

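The 6 calls of lower genes among the 9 stayed at 6 with RLE, upper quartile or library size scaling, without a filter, with a minimum count of 50, with limma-voom and with a replicate block. DESeq2 called 7, and leaving out 1 library gave 5 to 8. Over these alternatives 3.6% to 8.34% of all tested genes were called lower. The median log2 fold change of the set was −1.49 to −1.19 without 1 library. Over all genes, leaving out 1 library gave 681 to 1093 higher and 499 to 883 lower, beside 1033 and 789. With the replicate block, 1137 were higher and 945 lower, and no call of the 9 changed. Whether replicate numbers pair the samples is not stated. Deviations of same-numbered libraries correlated at −0.05, 0.189 and 0.256, and those of other pairs across the groups at −0.254 to 0.106. CD8 beta+ replicate 1 correlated better with DN NK1.1+ replicate 2 (0.106) than with its own number.

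Signs turned in 8 of 77 named genes, none of them called under that alternative or with all libraries. Satb1 turned to 0.086 and Rny3 to 0.25 without CD8 beta+ replicate 2, Bach2 to −0.0042 and Armcx5 to −0.00048 without CD8 beta+ replicate 3, Cd4 to 0.86 without that library, Gsk3b to 0.013, Csn2 to −0.47 and Tcf7l2 to −1.28 without DN NK1.1+ replicate 3, and Tcf7l2 to −0.010 with the replicate block. Leaving out 1 library gave −0.47 to 0.086 for Satb1, −0.45 to 0.25 for Rny3, −0.0042 to 0.40 for Bach2, −0.00048 to 0.29 for Armcx5, −0.12 to 0.013 for Gsk3b, −0.47 to 0.82 for Csn2, −1.23 to 0.86 for Cd4 and −1.28 to 0.999 for Tcf7l2. Genes under the minimum count of 50, such as Arg1, have no value there. The cause was not tested. The median difference of CD8 beta+ replicate 3 over the set was −0.68 to −0.58 under the other scalings. Dapl1, with 20 counts over the DN NK1.1+ libraries, is the gene of the set most limited by depth.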
